A study of Mus musculus with 6 samples.

Results

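The miRNAs described here are the products of 8 hairpins on the mouse X chromosome, named mmu-miR-741, mmu-miR-881, mmu-miR-470, mmu-miR-880, mmu-miR-871, mmu-miR-878, mmu-miR-463 and mmu-miR-743a in the tables and written below without the species prefix. They were taken by name from tables of 1080 small RNA entries, 754 of them named as mouse miRNAs, and 16 entries matched, 1 for each arm of each hairpin. The hairpins were selected on their mean level over the libraries: the 3p arms of miR-741 and miR-881 and the 5p arm of miR-470 stood among the 10 most abundant entries, so the levels given here are a description and carry no test. The 6 libraries came from N2A (Neuro2A), an established mouse neuroblastoma line whose cell type is labelled neuroblast. In 3 of them (si-NC) the cells had a control siRNA and in 3 (si-circCpsf6) an siRNA against the circular RNA circCpsf6, in both groups at 100 nM with a lipid reagent and in the same serum-containing medium. The level of circCpsf6 was not analysed here, so its loss in each library is not checked here. Nothing in the labels ties the replicates to separate cultures, and the spread that p-values rest on here is that between these libraries and may be technical.

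A miRNA hairpin is cut by Drosha and Dicer into a duplex, of which an Argonaute protein usually keeps 1 strand, the 5p or the 3p arm, while the other is degraded. Target recognition rests mostly on the seed, bases 2 to 8 of the mature miRNA. The X-linked miRNAs between Slitrk2 and Fmr1 form a fast-evolving mammalian family of related hairpins, and they are best known from the testis, where spermatogenic cells and Sertoli cells express them.

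The mature sequences are shown because the seed decides which of these miRNAs could share targets, and because the arms are compared further on. They are RefSeq's sequences on GRCm38.p6, 5′ to 3′, with the seed in capitals, for the more abundant arm of each hairpin first.
miR-741-3p: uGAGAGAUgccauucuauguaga
miR-881-3p: aACUGUGUcuuuucugaauaga
miR-470-5p: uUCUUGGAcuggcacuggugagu
miR-871-3p: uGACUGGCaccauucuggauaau
miR-880-3p: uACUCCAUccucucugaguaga
miR-743a-3p: gAAAGACAccaagcugaguaga
miR-878-5p: uAUCUAGUuggaugucaagaca
miR-463-3p: uGAUAGACaccauauaagguag

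The less abundant arms of the same hairpins follow, since several of them were abundant too.
miR-871-5p: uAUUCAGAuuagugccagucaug
miR-878-3p: gCAUGACAccacacuggguaga
miR-741-5p: uACGUAGAuugguaccuaucaug
miR-743a-5p: uAUUCAGAuuggugccugucau
miR-463-5p: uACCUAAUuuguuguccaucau
miR-881-5p: cAGAGAGAuaacagucacaucu
miR-470-3p: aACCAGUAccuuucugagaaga
miR-880-5p: uACUCAGAuugauaugaguca

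The 16 sequences held 15 different seeds. miR-871-5p and miR-743a-5p shared the seed AUUCAGA. Outside the 8 hairpins, the only RefSeq mouse miRNA with the seed of a member was miR-743b-3p, from the neighbouring hairpin, which shares AAAGACA with miR-743a-3p:
miR-743b-3p: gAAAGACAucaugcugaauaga

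The 3p arms had short strings of letters in common. Of the 8 member 3p arms, 5 ended in UAGA, as did 1.69% of the 709 RefSeq mouse 3p sequences, and 4 held CACCA, as did 2.82%. In those 4 arms CACCA overlaps the end of the seed. No member 5p arm ended in UAGA or held CACCA. Both letter strings were searched on the mature strand and chosen after the sequences were seen. The members were poorer in G and C than mouse miRNAs in general, with a median GC content of 40.0% (31.8% to 54.5%) against 52.2% over 1679 RefSeq sequences, and were 21 to 23 bases long. None of the 16 sequences occurs in RefSeq under a second mature name. In the entry names, suffixes were read here as variants of the reference: the entries for miR-463-3p, miR-463-5p, miR-878-5p and miR-880-5p were 1 base longer at the 3′ end and that for miR-871-5p 1 base shorter. The entry for miR-881-3p carried A22T (RefSeq's base, its position from the 5′ end, the entry's base), a change of the last base that leaves the seed as it is.

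All 8 hairpins lie on the minus strand of the X chromosome within 37.3 kb, at chrX:66776757-66814025 (GRCm38, not the authors' build). GENCODE M21 places 13 miRNA genes and 1 processed pseudogene, Gm14681, in that stretch, and none of the 8 hairpins lies inside another annotated gene, so they are intergenic. The nearest protein-coding genes are Slitrk2, 115 kb away on the lower side, and Gm1140, 869 kb away on the upper side. Fmr1 lies 1865 kb beyond the upper end. The 3 hairpins printed here, with both mature arms in capitals, stand for the 3 patterns of arm use described further on: 1 arm far above the other (miR-741, chrX:66796805-66796875), the 5p arm somewhat above the 3p arm (miR-878, chrX:66801508-66801585) and 1 arm listed at or near 0 (miR-880, chrX:66800530-66800607).
miR-741 hairpin: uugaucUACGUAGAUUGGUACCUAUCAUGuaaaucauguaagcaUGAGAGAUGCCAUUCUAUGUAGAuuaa
miR-878 hairpin: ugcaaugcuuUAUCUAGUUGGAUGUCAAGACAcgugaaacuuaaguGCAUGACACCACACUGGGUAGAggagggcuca
miR-880 hairpin: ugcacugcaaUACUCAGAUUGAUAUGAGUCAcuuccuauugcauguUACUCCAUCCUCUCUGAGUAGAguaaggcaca

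Values are the authors' normalized read numbers, which count whole small RNAs and need no correction for length, although ligation and amplification can favour some sequences over others. Their sums over a library ran from 2570449 to 3268351 and do not give the read depth, which is unknown. si-NC replicate 3 stood apart, with 556 entries at 1 or more against 710 to 800 in the other libraries. Of 187 entries outside the members with a mean of 1000 or more, 69.0% had their lowest or highest value in that library, and so did 12 of the 14 member entries with such a mean (7 lowest, 5 highest). Results that rest on it are given with and without it.

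The cluster was among the major miRNA sources of these cells. By mean over the 6 libraries miR-741-3p ranked 3 of all entries, miR-881-3p 4 and miR-470-5p 10, and 13 of the 16 entries were among the 100 most abundant. miR-741-3p was listed at 107257, 96099 and 49081 with the control siRNA and at 75102, 96121 and 74961 with the circCpsf6 siRNA. The lowest library was si-NC replicate 3, and the groups overlapped. miR-881-3p was listed at 88899, 88913 and 61362 with the control siRNA and at 69276, 86968 and 69188 with the circCpsf6 siRNA. Again si-NC replicate 3 was lowest, with overlap between the groups. miR-470-5p, the main arm of its hairpin, had the narrowest range of the 16, 1.39 times from lowest to highest, at 63474, 59762 and 58332 with the control siRNA and 45821, 56541 and 56201 with the circCpsf6 siRNA.

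**Figure D1:**
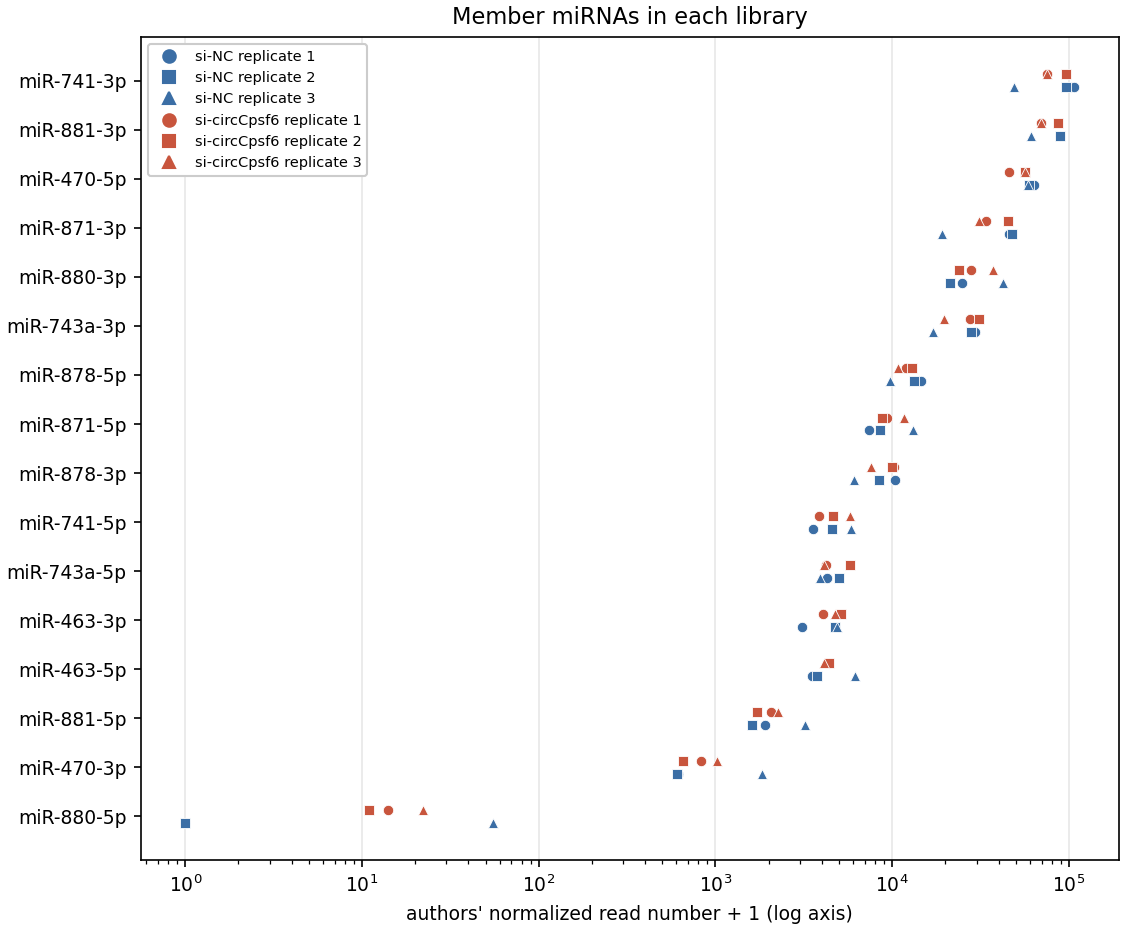
Normalized read number plus 1 (log axis) of each of the 16 entries, with 1 point per library, coloured by group and shaped by replicate. The entries span from miR-741-3p, at 49081 to 107257, down to miR-880-5p, at 0 to 54, and the triangle of si-NC replicate 3 lies at an end of most rows.

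Behind these came the 3p arms of miR-871, miR-880 and miR-743a. miR-871-3p was listed at 45778, 47415 and 19239 with the control siRNA and at 33764, 45280 and 30884 with the circCpsf6 siRNA. miR-880-3p went the other way across the libraries, at 24763, 21177 and 42547 with the control siRNA and 27812, 23941 and 37184 with the circCpsf6 siRNA. In both groups the third replicate was thus lowest for miR-871-3p and highest for miR-880-3p. miR-743a-3p was listed at 29230, 27957 and 17028 with the control siRNA and at 27548, 31043 and 19572 with the circCpsf6 siRNA, with the third replicate lowest in each.

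Both arms of miR-878 were abundant. miR-878-5p stood at 14508, 13226 and 9687 with the control siRNA and at 11981, 13025 and 10802 with the circCpsf6 siRNA, and miR-878-3p at 10388, 8421 and 6106 and at 10301, 10010 and 7571. miR-463 gave nearly equal arms at a lower level. Its 3p arm was listed at 3103, 4715 and 4859 with the control siRNA and at 4084, 5146 and 4752 with the circCpsf6 siRNA, and its 5p arm at 3535, 3732 and 6191 and at 4371, 4410 and 4094. For all 4 entries the groups overlapped.

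The remaining entries were the less abundant arms. miR-871-5p was listed at 7359, 8585 and 13118 with the control siRNA and 9403, 8714 and 11670 with the circCpsf6 siRNA, miR-741-5p at 3581, 4565 and 5839 and at 3855, 4617 and 5785. Both were highest in the third replicate of si-NC. miR-743a-5p was at 4294, 5000 and 3894 with the control siRNA and at 4242, 5794 and 4098 with the circCpsf6 siRNA. miR-881-5p was at 1916, 1617 and 3207 with the control siRNA and at 2074, 1710 and 2272 with the circCpsf6 siRNA. miR-470-3p, at 612, 603 and 1822 with the control siRNA and 825, 650 and 1014 with the circCpsf6 siRNA, had the widest range of the entries never listed at 0, 3.02 times from lowest to highest. miR-880-5p was listed at 0, 0 and 54 with the control siRNA and at 13, 10 and 21 with the circCpsf6 siRNA, so its partner arm made up nearly all of that hairpin's product.

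The order of the levels was firm only in part. Each library placed miR-881-3p above miR-470-5p, miR-470-5p above miR-871-3p, miR-743a-3p above miR-878-5p and miR-878-3p above miR-741-5p. The order of miR-463-5p, miR-881-5p, miR-470-3p and miR-880-5p, from high to low, was also the same in the 6 libraries. Neighbours whose order changed between libraries were miR-741-3p and miR-881-3p (the first higher in 5 of 6), miR-871-3p and miR-880-3p (4 of 6), and miR-880-3p and miR-743a-3p (3 of 6). So did the run from miR-878-5p through miR-871-5p to miR-878-3p, and that from miR-741-5p through miR-743a-5p and miR-463-3p to miR-463-5p.

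Together the 16 entries held 13.7%, 13.6% and 12.0% of all normalized reads in the si-NC libraries and 11.7%, 12.2% and 12.0% with the circCpsf6 siRNA. The means were 13.1 ± 0.943% and 12.0 ± 0.275% (mean ± SD of n = 3 libraries, the form used for each group mean), a difference of -1.12 percentage points. The value of si-NC replicate 3 fell among those of si-circCpsf6, and with that library left out the difference was -1.66 points. The sum of the 16 entries was 367617 ± 57138 with the control siRNA and 354840 ± 34234 with the circCpsf6 siRNA. In bulk RNA, fewer cells making these miRNAs and less miRNA per cell cannot be told apart.

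**Figure D2:**
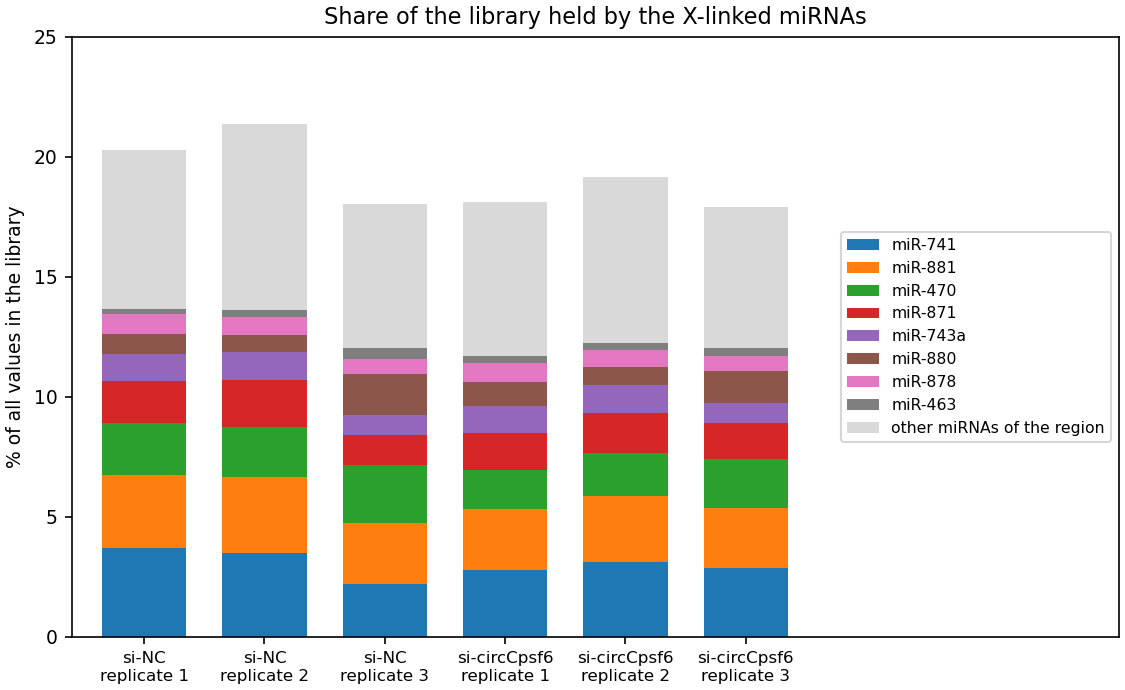
Percent of all normalized reads in each library (1 bar per library, axis from 0), stacked by member hairpin with both arms added, and in grey the other miRNAs of the same X-linked region. The coloured part ends between 11.7% and 13.7% and the whole bar between 17.9% and 21.4%.

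The question of the comparison was whether miRNA levels differ when circCpsf6 is silenced, and for the cluster no difference passed the test. limma (log2 of value + 1, 880 entries, Benjamini-Hochberg adjustment over all of them) called 0 of the 16 entries, and 0% of all entries, at an adjusted p under 0.05. At an unadjusted p under 0.05 it called 0 members and 6.48% of all entries. The lowest unadjusted p among the members was 0.248, for miR-880-5p. Adjusted p-values of the members ran from 0.878 to 0.991.

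For the 3 most abundant members the fitted changes were smaller than their standard errors. miR-741-3p had means of 84146 ± 30875 with the control siRNA and 82061 ± 12176 with the circCpsf6 siRNA, and the fitted log2 change, which weighs the libraries on the log scale, was 0.03 (SE 0.35, 95% interval -0.78 to 0.84). miR-881-3p had means of 79725 ± 15902 and 75144 ± 10240, with a log2 change of -0.073 (SE 0.28, interval -0.71 to 0.57). For miR-470-5p the means were 60523 ± 2654 and 52854 ± 6093 and the log2 change -0.20 (SE 0.24, interval -0.76 to 0.35, limma adjusted p = 0.947). miR-470-5p was the 1 member whose groups did not overlap, all 3 si-circCpsf6 values being lower, as they were for 5.11% of all entries tested. No member had 3 higher values, against 7.05% of all entries. The 3 intervals together reach from -0.78 to 0.84, so a p above the threshold does not show equal levels.

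**Figure D3:**
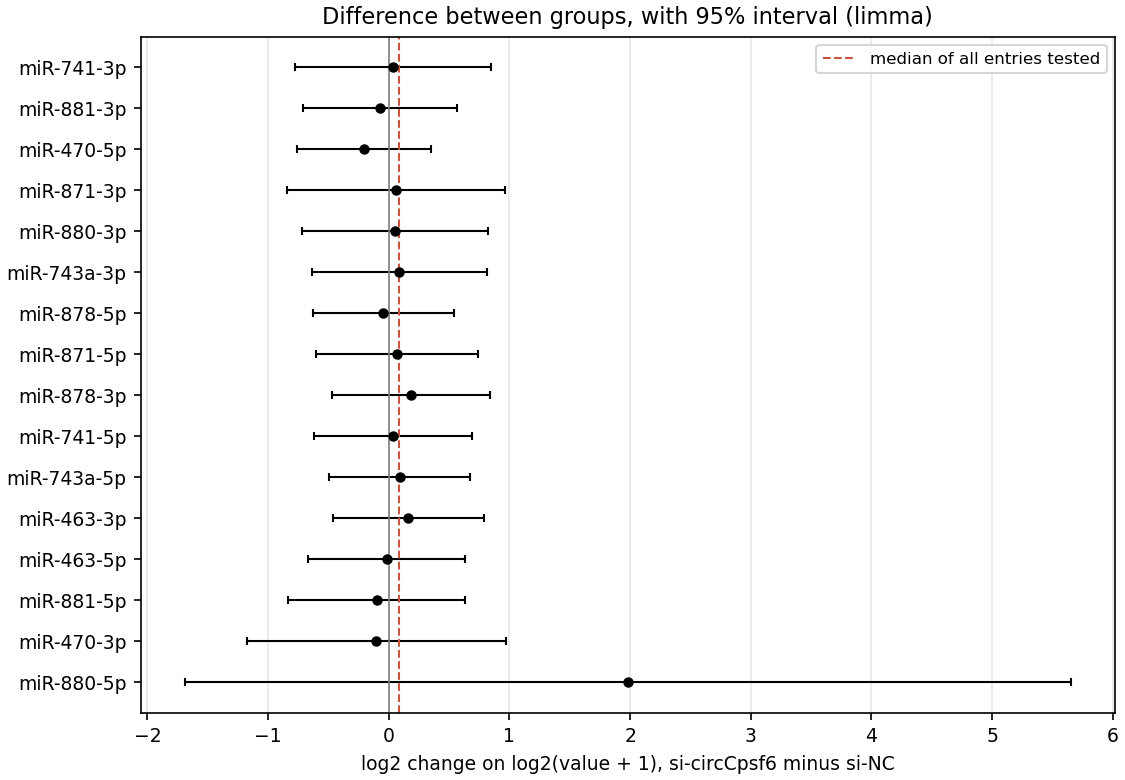
log2 change between the groups (si-circCpsf6 minus si-NC, on log2 of value + 1) for the 16 entries, with 95% intervals from limma, and the median of all 880 entries as a dashed line. The interval of each entry crosses 0, and that of miR-880-5p, listed at 0 in 2 si-NC libraries, runs from -1.69 to 5.65.

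Across the 16 entries the log2 change was positive for 10 and negative for 6, with a median of 0.043 beside 0.088 over all entries tested. With the libraries rescaled to the same total, 5 were positive and 11 negative, with a median of -0.040 beside 0.013. Leaving out miR-880-5p, the changes lay between -0.20 (miR-470-5p) and 0.18 (miR-878-3p). miR-880-5p had a log2 change of 1.98 (SE 1.59), although its mean was lower in si-circCpsf6 (14.7 against 18.0), because 2 si-NC libraries listed it at 0. Several signs rested on si-NC replicate 3: without that library the log2 change of miR-741-3p was -0.32 in place of 0.03, that of miR-871-3p -0.37 in place of 0.059, and that of miR-470-3p 0.43 in place of -0.10. With libraries weighted by their agreement with the rest (array weights), an alternative added after seeing the data, limma called 31 of the 880 entries (11 higher, 20 lower) and 1 member, miR-880-5p, at an adjusted p of 0.0358, where the adjusted p-values of the members over the alternatives ran from 0.0358 to 1.

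The 3p arm was the main product of 5 hairpins in each library, the 5p arm of 2 (miR-470 and miR-878), and for miR-463 the order changed from library to library. On average 73.6% of the cluster's value was on 3p arms. The log2 ratio of the 3p to the 5p arm was largest for miR-881, at 5.54, 5.78 and 4.26 with the control siRNA and 5.06, 5.67 and 4.93 with the circCpsf6 siRNA, if miR-880, whose 5p arm was listed at 0 in 2 libraries, is set aside. For miR-741 the ratio was 4.90, 4.40 and 3.07 with the control siRNA and 4.28, 4.38 and 3.70 with the circCpsf6 siRNA. miR-743a had ratios of 2.77, 2.48 and 2.13 and of 2.70, 2.42 and 2.26, and miR-871 of 2.64, 2.47 and 0.55 and of 1.84, 2.38 and 1.40. Each of these 4 hairpins thus kept its main arm in each library, with the smallest ratio of each group in replicate 3.

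miR-470 favoured the opposite arm, with log2 ratios of -6.69, -6.63 and -5.00 with the control siRNA and -5.79, -6.44 and -5.79 with the circCpsf6 siRNA. The arms of miR-878 stayed close together, from -0.67 to -0.22, and so did those of miR-463, from -0.35 to 0.34. The miR-878 hairpin printed above thus gave products with the unrelated seeds AUCUAGU and CAUGACA at similar levels.

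**Figure D4:**
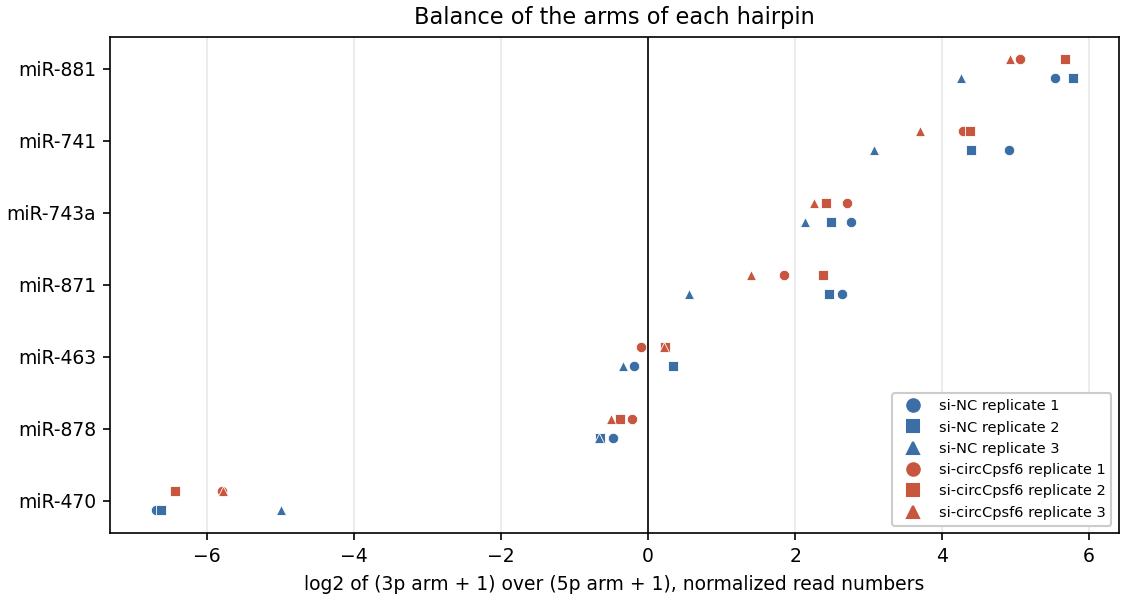
log2 of the 3p over the 5p arm (each value + 1) for 7 hairpins, with 1 point per library coloured by group and shaped by replicate, and the line at 0 marking equal arms. miR-880 is left out because its 5p arm was listed at 0 in 2 libraries. The points range from -6.69 for miR-470 to 5.78 for miR-881, and the groups share the same range for most hairpins.

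No difference in the arm ratio of these hairpins passed the test. limma on the ratios of 213 hairpins called 0 of the 8 and 0% of all at an adjusted p under 0.05, and at an unadjusted p under 0.05 called 0 of the 8 and 2.82% of all. The groups overlapped for each of the 8 and failed to overlap for 7.51% of all hairpins. For the 7 hairpins other than miR-880, the difference in the log2 ratio lay between -0.0097 (miR-871) and 0.23 (miR-878, SE 0.32). Without si-NC replicate 3 the test called 1 of the 8, and 2 of all 215 hairpins tested, the 1 being miR-880 (limma adjusted p = 0.0110), in a comparison where its 5p arm is listed at 0 in both si-NC libraries left.

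Within the si-NC group the arms of the lopsided hairpins were closer together in replicate 3 than in the other replicates. This held for the 6 member hairpins whose arms were at least 1 log2 unit apart in si-NC replicates 1 and 2, with miR-871 the clearest, where the 5p arm made up 13.8% and 15.3% of the hairpin's value in replicates 1 and 2 and 40.5% in replicate 3. miR-880, with its 5p arm at 0 in replicates 1 and 2, is 1 of the 6. Among other hairpins as far apart, the arms were closer in that library for 79 of 171 (46.2%). Within the region the pattern was not particular to the members. In si-NC the log2 ratios were 3.83, 4.24 and 2.47 for the neighbouring miR-883a and -3.23, -3.76 and -2.74 for miR-471. For miR-743b they were 3.42, 3.30 and 3.20. The ratios of miR-465b were 9.36, 9.41 and 12.8. Its 5p arm was listed at 18, 18 and 0 in these libraries, so the last ratio rests on a value of 0. In si-circCpsf6 replicate 3 the same 6 member hairpins, and 51.5% of the others, had closer arms than in replicates 1 and 2. The less abundant arms together made up 7.75%, 8.30% and 13.3% of the cluster's value in si-NC and 10.6%, 9.12% and 10.7% with the circCpsf6 siRNA. The lower number of entries detected in si-NC replicate 3 moves with this pattern, and its part in it was not tested.

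miR-741 held 23.7 ± 4.81% of the cluster's value with the control siRNA and 24.4 ± 1.01% with the circCpsf6 siRNA, miR-881 22.2 ± 0.876% and 21.7 ± 0.754%, and miR-470 17.0 ± 2.52% and 15.2 ± 1.46%. miR-871 held 12.7 ± 1.82% and 13.1 ± 0.596%. The smallest share was that of miR-463, at 2.48 ± 1.05% and 2.53 ± 0.0916%. The most variable was miR-880, at 6.06%, 5.41% and 14.1% with the control siRNA and 8.42%, 6.08% and 10.9% with the circCpsf6 siRNA. Turning the mean composition of si-NC into that of si-circCpsf6 would move 2.40% of the cluster's value from some hairpins to others, while single libraries lay on average 4.77% from the mean of their own group. With 1 library left out the first value ran from 1.80% to 4.67%. It was 4.67%, 4.42% and 3.91% without si-NC replicates 1, 2 and 3, and 4.13% without si-circCpsf6 replicate 3. The group difference in the share of miR-741 was 0.74 percentage points with all libraries and -2.005 without si-NC replicate 3, and that of miR-880 was -0.038 and 2.75.

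The neighbouring miRNAs of the same region summed to 0.52 ± 0.045 times the cluster's value in si-NC and 0.53 ± 0.039 times in si-circCpsf6. Of a list of 12 further hairpins of the region, 9 were measured, in 16 entries, and miR-201, miR-547 and miR-509 matched no mouse-named entry. Those 16 entries held 6.78 ± 0.882% of all normalized reads with the control siRNA and 6.40 ± 0.509% with the circCpsf6 siRNA, which with the 8 hairpins makes 19.9 ± 1.71% and 18.4 ± 0.661%. The most abundant was miR-743b-3p, with the seed of miR-743a-3p and a higher level, listed at 52766, 50572 and 32354 with the control siRNA and 44523, 54085 and 41471 with the circCpsf6 siRNA. miR-465c-5p was at 55911, 57758 and 31397 and at 40371, 51282 and 35729. miR-883a-3p was at 24756, 42187 and 26125 with the control siRNA and 34798, 45839 and 31928 with the circCpsf6 siRNA, and miR-465a-5p at 26575, 28267 and 15241 and at 18760, 24298 and 16530. For all 4 the groups overlapped. limma called 0 of these 16 entries at an adjusted p under 0.05 and 0 at an unadjusted p under 0.05, with 9 positive and 7 negative log2 changes and a median of 0.068.

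**Figure D5:**
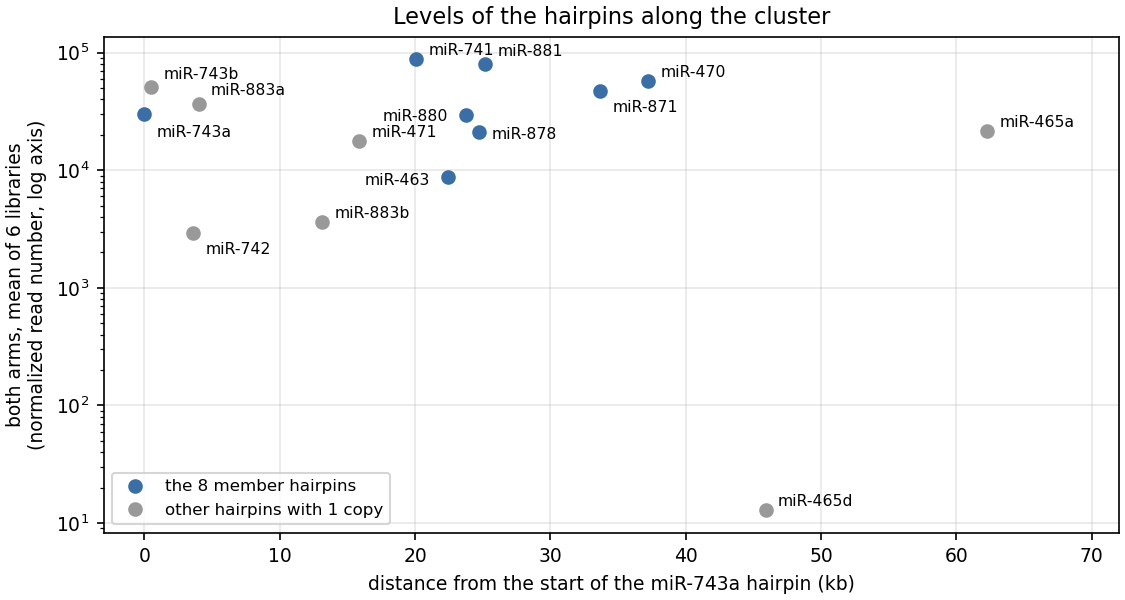
Summed level of both arms (mean of the 6 libraries, log axis) of each hairpin with 1 copy in RefSeq, against its distance from the start of miR-743a in kb, members in blue and other hairpins in grey. Levels from 8832 (miR-463) to 87811 (miR-741) occur among the members, and hairpins a few kb apart, such as miR-463 and miR-741, differ widely.

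Hairpins close together in the genome could differ widely in level. miR-463 lies between miR-741 and miR-880, and its arms summed to 8832 (mean of 6 libraries) against 87811 and 29587. miR-878 and miR-881, whose hairpins start less than 1 kb apart, summed to 21004 and 79567. miR-465d, beyond miR-470, reached only 12.8. The 3p sequences of miR-465a, miR-465b and miR-465c are identical in RefSeq, so the entry named miR-465b-3p may hold reads of all 3, and the rule by which they were assigned is not known here.

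The 8 hairpins were abundant beside low levels of 2 other miRNAs known from male germ cells. Among markers of spermatogenic and gonadal cells, 2 of 6 were measured. miR-34c-5p, abundant in spermatocytes and spermatids, was listed at 19, 32 and 0 with the control siRNA and at 13, 29 and 19 with the circCpsf6 siRNA, and the gonadal miR-202-5p at 0, 5 and 0 and at 0, 6 and 0. Their sum thus ran from 0 to 37 in si-NC and from 13 to 35 in si-circCpsf6. miR-34b and the miR-449 family, and the miR-290 and miR-302 families of pluripotent and early germ cells, were sought by name. No mouse-named entry matched them, so their levels are not known here. The 8 neuronal markers summed to 155781 to 267149 in si-NC and to 250525 to 397927 in si-circCpsf6, with overlap. They were led by miR-7a-5p, with a mean of 218283 over the 6 libraries against 261264 for the sum. The sum thus says little about the other markers. miR-218-5p came next, whereas the neuronal marker miR-124-3p stood at only 183 to 711 and miR-9-5p at 83 to 180. Markers of red blood cells (sums 0 to 17), skeletal muscle (2 of 3 measured, 43 to 132) and liver (0 to 5) were low in both groups.

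Entries outside the region were ranked by how steady their ratio to the sum of the 16 entries was. The 318 mouse-named entries with a mean of 100 or more were compared. The measure was the SD, over the 6 libraries, of the log2 ratio to that sum. The sum itself ran only from 302366 to 408697, so an entry that hardly varied also has a small SD. miR-149-5p was closest (SD 0.05), at 4940, 5052 and 3836 with the control siRNA and 4050, 4621 and 4025 with the circCpsf6 siRNA. It was followed by miR-130b-5p (0.09), miR-25-3p (0.11), miR-181c-3p (0.12) and miR-128-3p (0.15), against a median of 0.54. miR-128-3p was listed at 3123, 3005 and 3003 with the control siRNA and at 2549, 3012 and 2794 with the circCpsf6 siRNA. It hardly fell in si-NC replicate 3, where the sum was lowest. Each member is part of the sum, which can lower its SD, so its value is not comparable with those of outside entries. Among the members the SD was smallest for miR-881-3p (0.07) and miR-878-5p (0.08) and largest for miR-470-3p (0.78) and miR-880-5p (2.55). The neighbouring miRNAs of the region, not part of the sum, ran from 0.11 (miR-743b-5p) to 1.53 (miR-465b-5p).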

How the data were processed

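Small RNA libraries of 6 N2A samples (TruSeq small RNA kit, 1 ug of total RNA, per the labels' protocols) were grouped by title. The deposited values are the authors' normalized read numbers per entry, given as whole numbers and treated here as a score and not as raw counts, per the file headers. The genome build was mm9 per the submitters' processing notes, and for the aligner, the counting and the normalization the tool was not given in the sources used here. Of 1080 entries, those with the same values in all 6 libraries were merged, leaving 902, and the 880 with a mean of 1 or more were tested with limma 3.58.1 (trended variance, R 4.3.3) on log2(value + 1), group as the only term, Benjamini-Hochberg adjustment at 0.05. Log2 changes on this scale understate or distort those of low entries. Arm ratios of 213 hairpins with an arm at a mean of 10 or more were tested with limma without a trend. The test of entries was tried on simulated data. The arm test was tried on the real values, with the 3p arms of some hairpins of low spread raised in si-circCpsf6. The outcomes of these trials are not used here. The members, lists and tests were chosen with earlier results of these data known. All 16 member entries are named, as are the 4 most abundant other miRNAs of the region and miRNAs sharing a member's seed. The 5 entries with the steadiest ratio to the member sum are named too. Alternatives were other pseudocounts, filters, scalings, merging rules and variance models, mouse-named entries alone, each library left out and the replicate number as a block. Chosen after seeing the data were array weights and a stricter merging rule, which left 916 entries to test. Sequences are from RefSeq (GRCm38.p6, 16 of 16 entries matched by name and arm, not by the sequence read) and genes from GENCODE M21. The entry listed as mmu-mir-881-p5 was read as miR-881-5p. Python 3.11.15, numpy 2.4.6, pandas 2.3.3 and matplotlib 3.10.9 did the rest.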

Additional observations from a re-analysis of the deposited data

How the results depend on the processing

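Read depth is unknown, and entries at or near 0, such as miR-880-5p, cannot be told from a missing measurement. With 3 libraries a group, leaving out 1 library turned a member's sign in 27 cases. si-NC replicate 3 was not the only library with this effect. Over 18 alternatives the 16 member log2 changes kept their sign and their side of the threshold in 248 of 288 cases, 39 had the opposite sign and 1 passed the threshold. With array weights, chosen after seeing the data, limma called 31 entries (11 higher, 20 lower), among them 1 member, miR-880-5p (adjusted p = 0.0358, the highest over all alternatives and members being 1). si-NC replicate 3 has a weight of 0.147 there against 2.25 and 1.37 for the other si-NC libraries. The other alternatives with all libraries called 0 entries. Leaving out 1 library, calls ran from 0 to 4 over all entries (4 without si-NC replicate 3), were 0 among member entries each time, and ran from 0 to 1 among member arm ratios. The median member log2 change was -0.040 with libraries rescaled to the same total, and -0.013 to 0.097 with 1 library left out. The share difference ran from -1.66 to -0.835 points. The part of the cluster's value that differs in make-up ran from 1.80% to 4.67%. The replicate block, the replicate number as a term, called 0 entries and 0 members (lowest adjusted p 0.154 and 0.573) and 0 member arm ratios. Deviations of same-numbered libraries correlated at 0.038, 0.50 and 0.41, and 5 of 6 libraries correlated best with their own number. Same-numbered libraries may thus be related, which the labels do not say. The main fit has no replicate term, and the replicate block allows for such a relation.

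Signs turned with libraries rescaled to the same total for miR-871-5p (-0.014), miR-741-3p (-0.051), miR-741-5p (-0.047), miR-871-3p (-0.024) and miR-880-3p (-0.033). They turned with array weights for miR-743a-5p (-0.011), miR-881-5p (0.14), miR-470-3p (0.36), miR-743a-3p (-0.081), miR-463-5p (0.23), miR-741-3p (-0.34) and miR-871-3p (-0.35). The cause was not tested. With 1 library left out the log2 change ran from -0.32 to 0.25 for miR-741-3p, -0.14 to 0.21 for miR-741-5p, -0.25 to 0.016 for miR-881-3p, -0.31 to 0.19 for miR-881-5p, -0.37 to 0.43 for miR-470-3p, -0.16 to 0.35 for miR-880-3p, -0.37 to 0.28 for miR-871-3p and -0.11 to 0.31 for miR-871-5p. It ran from -0.023 to 0.36 for miR-878-3p, -0.22 to 0.072 for miR-878-5p, -0.045 to 0.28 for miR-463-3p, -0.16 to 0.24 for miR-463-5p, -0.16 to 0.28 for miR-743a-3p and -0.069 to 0.19 for miR-743a-5p. miR-470-5p (-0.25 to -0.10) and miR-880-5p (1.02 to 3.91) kept their signs.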

Other observations

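Entries named after rat miRNAs of the same numbers were listed beside the mouse entries at low values and were not counted as members. The rat-named miR-871-3p entry stood at 7, 9 and 0 with the control siRNA and at 4, 12 and 6 with the circCpsf6 siRNA, and a rat-named variant of miR-741-5p at 8, 9 and 21 and at 3, 14 and 24. Among the neighbouring miRNAs of the region, both arms of miR-742 were listed highest in si-NC replicate 3, at 2466 for the 3p arm and 2536 for the 5p arm, against 874 to 2001 and 813 to 1327 in the other libraries. Over the 16 neighbouring entries, that library held the lowest value for 7 and the highest for 6.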
